A study of Mus musculus with 9 samples.

Results

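The proteasome subunit genes of mouse liver are the protein-coding genes of the deposited count table whose symbols run from Psma to Psmg followed by a number. The rule found 49 of them among 56748 genes in the table. They were split by role into 8 alpha-ring genes (Psma), 8 beta-ring genes (Psmb), the 3 immunoproteasome genes Psmb8, Psmb9 and Psmb10, 6 ATPase genes (Psmc), 14 non-ATPase genes (Psmd), 5 activator genes (Psme), the inhibitor gene Psmf1 and 4 assembly chaperone genes (Psmg). The filter on low counts kept 48 of the 49. The gene left out was Psmb11, a beta subunit of thymus epithelium, which had no count in any library.

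The livers came from male C57BL/6J mice that were 28 weeks old and had eaten high-fat food since 8 weeks of age, a span of 20 weeks. In the last 4 weeks, 5 mice received formoterol, a long-acting beta-adrenergic agonist, at 1 mg/kg by daily injection into the peritoneum, and 4 received the DMSO vehicle in the same way. Both groups ate the high-fat diet, so the comparison says nothing about the diet itself. Poly(A) RNA of whole liver was sequenced, and in such bulk tissue fewer cells of a type and less RNA per cell cannot be told apart.

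The proteasome is the large protease that unfolds and cuts proteins tagged with ubiquitin. Its barrel-shaped core is made of alpha rings, which gate the entrance, and beta rings, which hold the catalytic sites. A regulatory particle of ATPase and non-ATPase subunits caps the barrel, binds ubiquitin chains, removes them and feeds the substrate in. Under interferon, catalytic beta subunits can be exchanged for immunoproteasome subunits that favour peptides for MHC class I, and the ring-shaped activator PA28 can take the place of the regulatory particle. Much of the coordinated expression of these genes is known to run through the transcription factor NFE2L1.

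Libraries held 12336665 to 20339665 counts, and the members took 0.219% to 0.362% of them. Libraries are named by the codes that open their column names, M46 to M50 for formoterol and M56, M58, M59 and M60 for vehicle. Within the formoterol group M46 and M49 stood farthest apart on the first principal component of all genes tested (−79.4 and 43.1), which held 40.5% of the variance. The share of counts from genes of the mitochondrial genome ran from 16.4% to 38.6%, and the highest share belonged to formoterol library M50. The libraries are liver by their markers: the summed level of 18 hepatocyte genes, among them Alb, was 101600 to 121300 CPM (counts scaled for depth with TMM factors) in vehicle and 118800 to 166500 in formoterol livers.

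At an unadjusted p under 0.05, formoterol livers had higher transcript levels of 9 of the 15 constitutive core genes tested, of the 3 immunoproteasome genes, of Psme1, Psme2 and Psme2b, of 3 of 6 ATPase genes and of Psmg4, and lower levels of 3 of 14 non-ATPase genes. Of all genes tested, 9.03% were higher and 5.53% were lower at that level. No member passed the edgeR quasi-likelihood test after Benjamini-Hochberg adjustment over all 13042 genes tested (smallest adjusted p = 0.173, for Psmb8), and 0% of all genes did. At the unadjusted level, 19 of the 48 members tested were higher and 3 were lower. These were 39.6% and 6.25% of the members. The median log2 fold change (formoterol minus vehicle) was 0.26 over the members and −0.01 over all genes tested, and 37 of the 48 had a positive value against 48.7% of all genes.

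The count of higher members depended on single libraries. It was 9 without vehicle library M56, 10 without formoterol library M46, 10 without formoterol library M48 and 12 without vehicle library M59, where 5.77%, 6.26%, 6.35% and 6.33% of all genes were higher. The count of lower members was 1 without M47 or M50, where 4.79% and 7.66% of all genes were lower, and 0 without M56 or M59, where 3.29% and 3.87% were. With library totals in place of TMM factors, 6 members were higher and 4 lower, against 3.58% and 9.91% of all genes. That scaling moved the median log2 fold change of all genes to −0.16 and that of the members to 0.11. Other tools differed in what they called after adjustment. DESeq2 called Psmb8 alone, higher (2.51% of the 8989 genes given an adjusted p were called higher and 0.89% lower), and limma-voom called 0 members and 0% of all genes. limma-voom with sample quality weights called 11 members higher and 1 lower, where it called 6.07% of all genes higher and 4.46% lower. The runs with other scaling or other tools used the same 9 libraries, and the remaining runs left 1 of them out.

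**Figure D1:**
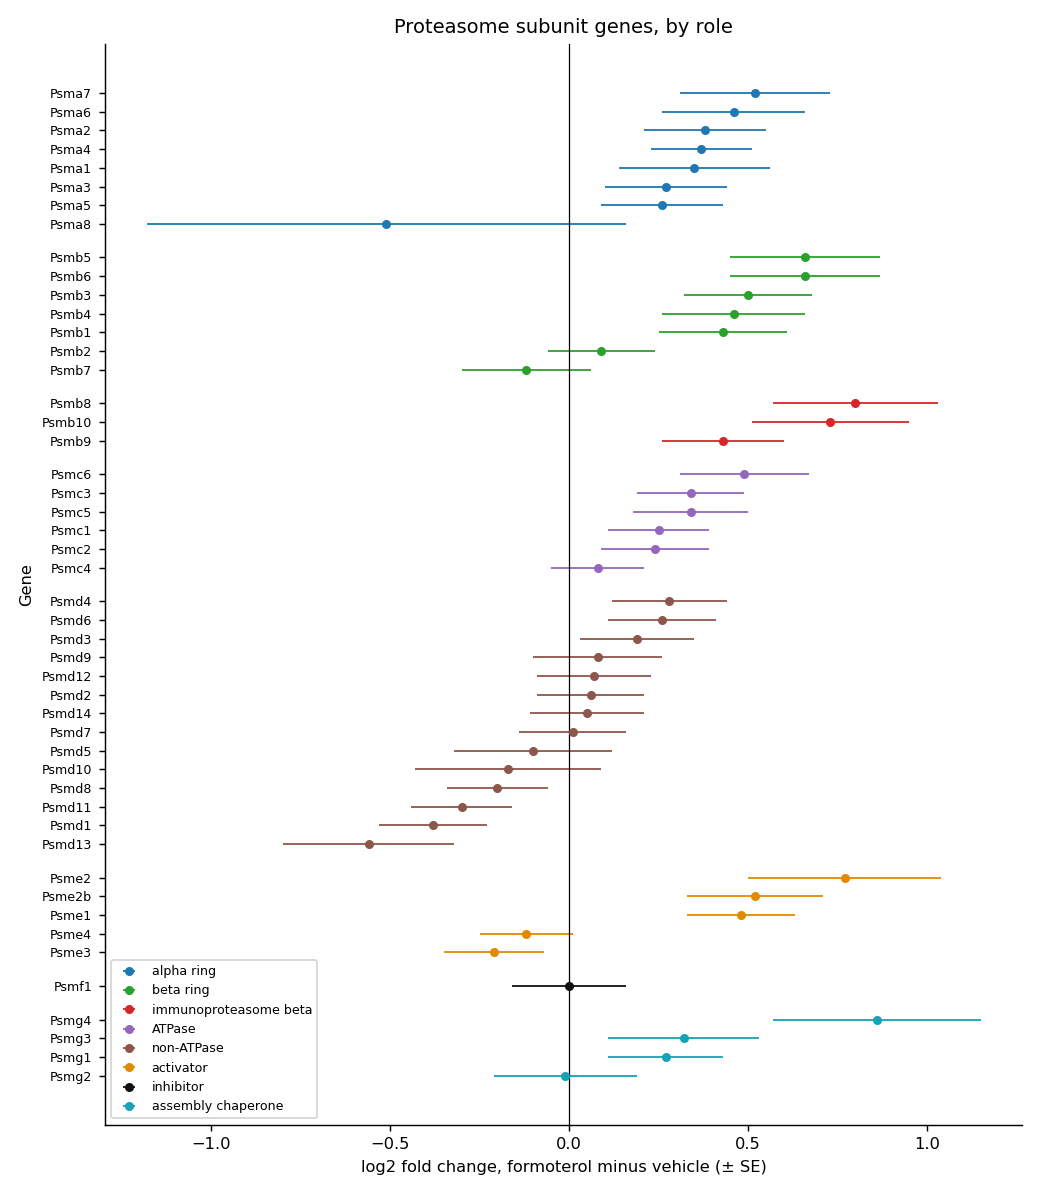
Log2 fold change (horizontal axis, formoterol minus vehicle, with bars of 1 standard error) of the 48 members tested, grouped by role and coloured as in the key. The 3 immunoproteasome genes and the 6 ATPase genes are all to the right of 0, and the 14 non-ATPase genes spread from −0.56 to 0.28.

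The alpha ring frames the barrel and its tails form the gate. Of its 8 genes, 4 were higher at an unadjusted p under 0.05 and none was lower, with a median log2 fold change of 0.36. Psma4 (ENSMUSG00000032301; chromosome 9, 54858074 to 54865314 on mm39) had 145, 140.1, 147.9 and 139.8 CPM in vehicle libraries M56, M58, M59 and M60. In formoterol libraries M46 to M50 it had 226, 186, 194, 159 and 164 CPM. Every formoterol library lay above every vehicle library (log2 fold change 0.37, SE 0.14, edgeR adjusted p = 0.247), and the vehicle libraries lay close together (143 ± 3.91 CPM, SD, n = 4).

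Psma7 had 62.1, 80.3, 83.7 and 89.1 CPM in the vehicle libraries and 151, 94.6, 150.3, 75.1 and 96.0 in the formoterol libraries. M46 and M48 stood well above the vehicle range, and the other 3 lay within or just above the vehicle range. Psma6 had 52.5, 67.2, 63.2 and 88.4 CPM against 120.3, 99.4, 109, 69.8 and 68.5. Here M49 and M50 lay inside the vehicle range and M46, M47 and M48 above it. The log2 fold changes were 0.52 (SE 0.21) for Psma7 and 0.46 (SE 0.20) for Psma6. Psma2 had 0.38 (SE 0.17), and Psma1, Psma3 and Psma5 ran from 0.26 to 0.35 with unadjusted p of 0.123 to 0.156. Psma2 overlaps AW209491 on the same strand over 8943 bp, and AW209491 had 7.07 CPM on average against 90.4 for Psma2.

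Psma8, an alpha subunit known from testis that replaces Psma7 in germ cells, was close to the lower limit of the counts. It had 1.17, 2.14, 0.49 and 1.06 CPM in vehicle and 1.71, 1.06, 0.39, 0.10 and 1.00 CPM in formoterol livers. The groups overlapped over most of their range, and its log2 fold change of −0.51 had an SE of 0.67. It was the only alpha gene with a negative value.

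The beta ring carries the proteolytic sites in Psmb5, Psmb6 and Psmb7, and the other beta subunits are structural. Of the 7 beta genes tested outside the immunoproteasome, 5 were higher at an unadjusted p under 0.05 and none was lower, with a median log2 fold change of 0.46. Psmb5 (chromosome 14, 54851576 to 54855479), the chymotrypsin-like subunit, had 54.8, 90.3, 92.4 and 113 CPM in vehicle and 183, 129, 155, 116 and 109 CPM in formoterol libraries. M50 alone lay inside the vehicle range, just under M60 (log2 fold change 0.66, SE 0.21, unadjusted p = 0.00682, edgeR adjusted p = 0.194). Psmb6 (chromosome 11, 70416193 to 70418684), the caspase-like subunit, had 78.3, 130.2, 111 and 125 CPM against 255, 152, 195, 136 and 140.4. The groups did not overlap, although M49 stood only a little above M58 (log2 fold change 0.66, SE 0.21, edgeR adjusted p = 0.194).

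Psmb7 (chromosome 2, 38478048 to 38534099), the trypsin-like subunit, did not share this pattern. It had 47.8, 52.2, 56.9 and 51.5 CPM in vehicle and 47.1, 46.2, 60.9, 55.8 and 30.3 CPM in formoterol libraries. The vehicle values lay inside the formoterol range, and M50 was the lowest (log2 fold change −0.12, SE 0.18, unadjusted p = 0.523). Psmb7 overlaps Nek6 on the other strand over 6571 bp of the genome, and Nek6 had 53.0 CPM on average, so with the strand setting of the counting not given its value is uncertain. Psmb3, a structural subunit, had 60.3, 89.5, 85.6 and 83.6 CPM in vehicle and 139.8, 100.2, 136, 86.1 and 102.5 CPM in formoterol livers, with M49 inside the vehicle range. Psmb4 and Psmb1 had log2 fold changes of 0.46 and 0.43, and Psmb2 had 0.09 (SE 0.15).

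**Figure D2:**
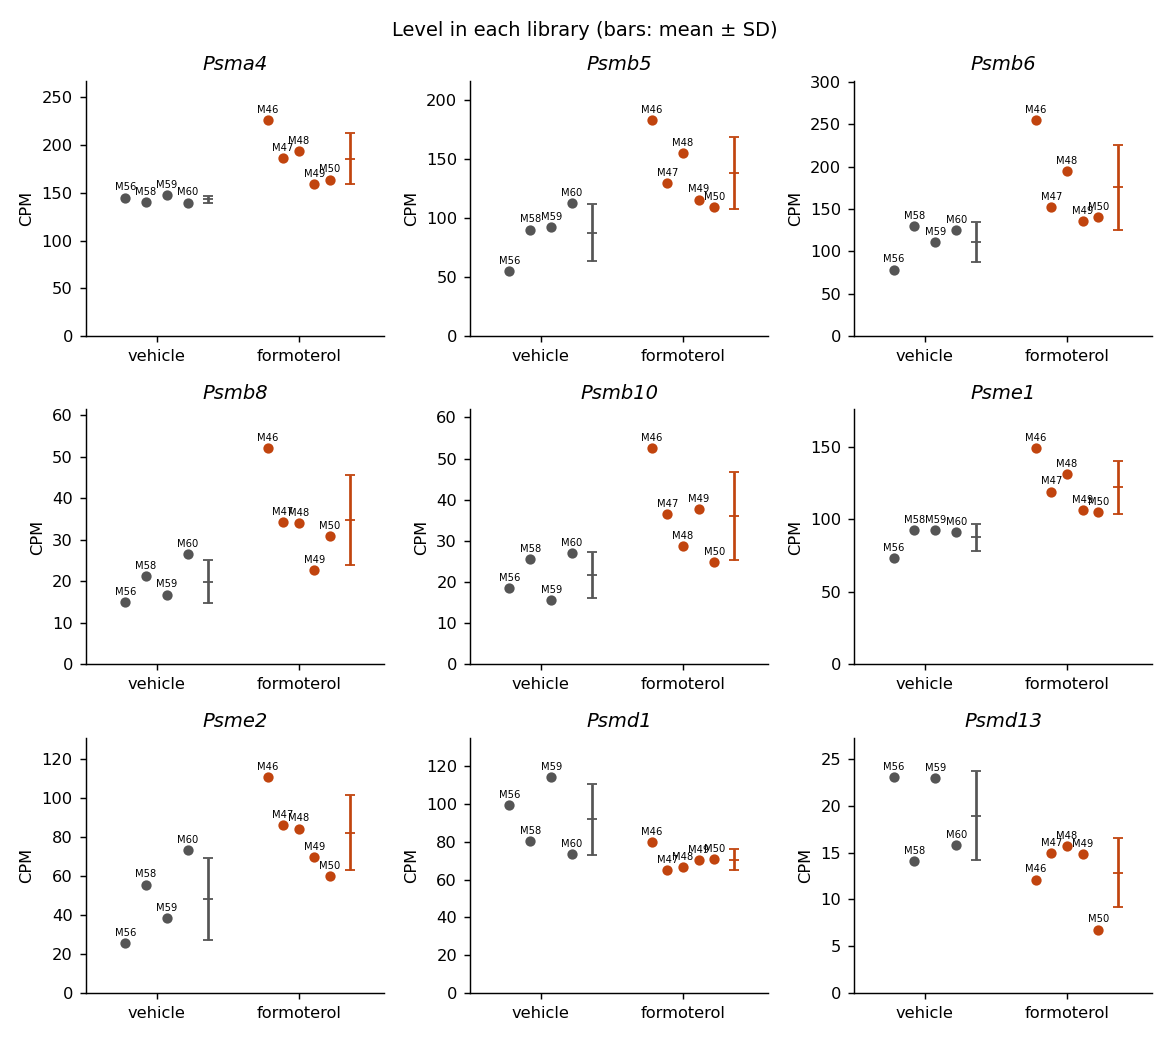
Level in each library (vertical axis, CPM from 0) of 9 members, with vehicle libraries in grey, formoterol libraries in orange and a bar for the mean ± SD of each group. M46 is the highest formoterol library for the 7 genes with higher means, and Psmd1 and Psmd13 have their 2 highest values in vehicle libraries M56 and M59.

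The immunoproteasome subunits are induced by interferon gamma and are present at low level in hepatocytes. All 3 were higher at an unadjusted p under 0.05, with a median log2 fold change of 0.73. Psmb8 (ENSMUSG00000024338; chromosome 17, 34416695 to 34420428), the inducible counterpart of Psmb5, had 15.1, 21.2, 16.8 and 26.6 CPM in vehicle and 52.0, 34.2, 34.1, 22.7 and 30.8 CPM in formoterol libraries. M49 lay among the vehicle libraries and M46 stood above all others. The means were 19.9 ± 5.13 CPM (SD, n = 4) and 34.8 ± 10.7 CPM (SD, n = 5), with a log2 fold change of 0.80 (SE 0.23). Its unadjusted p of 0.00329 was the smallest among the members (edgeR adjusted p = 0.173, DESeq2 adjusted p = 0.0404).

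Psmb10 (chromosome 8, 106662367 to 106665076), the counterpart of Psmb7, had 18.5, 25.7, 15.7 and 27.0 CPM in vehicle and 52.5, 36.6, 28.7, 37.7 and 24.9 CPM in formoterol livers. M50 was inside the vehicle range (log2 fold change 0.73, SE 0.22, edgeR adjusted p = 0.191). Psmb9 (chromosome 17, 34400961 to 34406738), the counterpart of Psmb6, had 14.6, 18.0, 16.8 and 20.2 CPM against 28.7, 21.3, 27.4, 20.2 and 20.1. M50 lay just below the highest vehicle library and M49 just above it (log2 fold change 0.43, SE 0.17, edgeR adjusted p = 0.254). Psmb9 overlaps the start of Tap1 on the other strand over 212 bp, and Tap1 had 14.0 ± 3.33 CPM in vehicle and 12.5 ± 1.75 in formoterol livers.

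Whether the inducible subunits changed relative to their constitutive counterparts was asked with the ratio of counts per kb in each library. The Psmb10 to Psmb7 ratio was 0.777, 0.987, 0.555 and 1.05 in vehicle and 2.24, 1.59, 0.944, 1.36 and 1.65 in formoterol libraries, where M48 lay inside the vehicle range. On the log2 scale the difference was 0.87 (two-sided exact permutation p = 0.0317), which did not pass adjustment over the 3 ratios (0.0952). The overlap of Psmb7 with Nek6 touches this ratio too. The Psmb9 to Psmb6 ratio was 0.0955, 0.0708, 0.0775 and 0.0828 in vehicle and 0.0576, 0.0714, 0.0719, 0.0763 and 0.0731 in formoterol libraries. Its log2 difference of −0.22 did not pass either (exact permutation p = 0.0794, adjusted 0.119).

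The Psmb8 to Psmb5 ratio was 0.0732, 0.0625, 0.0483 and 0.0627 against 0.0754, 0.0703, 0.0584, 0.0521 and 0.0750, and the groups overlapped over nearly their whole range. Its log2 difference was 0.10 (exact permutation p = 0.54). With 4 against 5 libraries there are 126 splits, and the smallest p the test can give is 0.00794. By these ratios transcripts of Psmb8 and Psmb9 were well below their constitutive counterparts per kb in every library. Psmb10 was at 0.555 to 1.05 times the level of Psmb7 per kb in vehicle and at 0.944 to 2.24 times in formoterol libraries. These values rest on the listed lengths of 1705 bp and 3421 bp. In CPM, Psmb10 had means of 21.7 in vehicle and 36.1 in formoterol livers, against 52.1 and 48.1 for Psmb7. Psmb8 and Psmb9 were below their counterparts in CPM too (vehicle means 19.9 against 87.5, and 17.4 against 111).

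**Figure D3:**
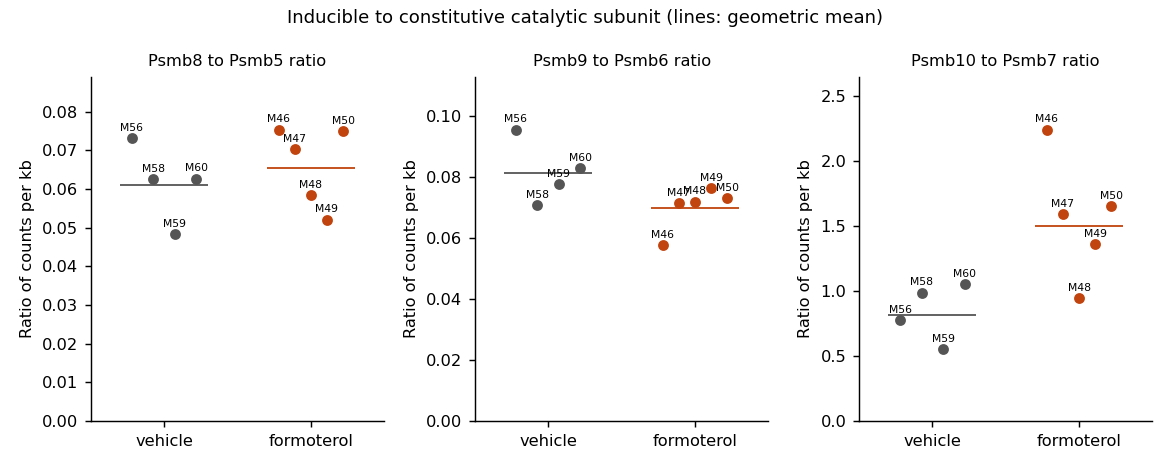
Ratio of counts per kb (vertical axis, linear from 0) of each inducible to its constitutive catalytic subunit in every library, with a line at the geometric mean of each group. The Psmb10 to Psmb7 ratio runs from 0.555 to 1.05 in vehicle and from 0.944 to 2.24 in formoterol libraries. The groups overlap in every ratio.

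The activator PA28 is built from Psme1 and Psme2, both interferon-inducible genes that lie close together on chromosome 14. Psme1 (55815580 to 55818986) had 73.3, 92.7, 92.7 and 91.3 CPM in vehicle and 149, 119, 131, 106 and 105 CPM in formoterol libraries. The groups did not overlap (log2 fold change 0.48, SE 0.15, edgeR adjusted p = 0.191). Psme2 (55824898 to 55828570) had 25.4, 55.6, 38.6 and 73.4 CPM against 111, 86.3, 84.4, 69.9 and 60.1. The vehicle libraries spread widely, and M49 and M50 lay below the highest of them (log2 fold change 0.77, SE 0.27, edgeR adjusted p = 0.223).

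Psme2b, a copy of Psme2 on chromosome 11, had 14.3, 19.8, 15.1 and 22.1 CPM in vehicle and 30.1, 26.9, 30.5, 19.5 and 20.9 CPM in formoterol livers, with M49 and M50 inside the vehicle range. The longest annotated transcripts of Psme2 and Psme2b (GENCODE M21) are identical at 99.4% of 794 aligned bases, so reads can be split between these genes in counting and neither value is certain. The other activators had an unadjusted p above 0.05. Psme3, which forms a nuclear activator ring, had a log2 fold change of −0.21 (SE 0.14) and Psme4, the large single-chain activator, −0.12 (SE 0.13), with unadjusted p of 0.153 and 0.353; with the length trend removed the values were −0.22 and 0.00. Psmf1, an inhibitor of the core, had 27.6, 30.4, 30.5 and 27.2 CPM in vehicle and 34.4, 23.2, 23.0, 35.4 and 28.7 CPM in formoterol livers. The formoterol values surrounded the vehicle values on both sides, and the fold change was 0.00 (SE 0.16).

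Promoter sequences are shown for 4 members, Psmb5, Psmb6, Psmb8 and Psme1, which had the smallest unadjusted p of the constitutive beta ring, of the immunoproteasome and of PA28. They are RefSeq promoter windows of build GRCm38.p6, given 5′ to 3′ on the gene's strand from 250 bases before the start, and letters in capitals mark a match to a searched motif. The windows lie at chr14:54617976-54618245 (minus strand), chr11:70525107-70525376 (plus), chr17:34197945-34198214 (plus) and chr14:55578244-55578513 (plus).
Psmb5: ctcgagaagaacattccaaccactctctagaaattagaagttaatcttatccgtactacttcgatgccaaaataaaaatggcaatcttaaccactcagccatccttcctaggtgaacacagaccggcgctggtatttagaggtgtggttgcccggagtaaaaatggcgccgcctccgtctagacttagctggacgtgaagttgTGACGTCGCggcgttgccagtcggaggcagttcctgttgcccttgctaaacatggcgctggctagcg
Psmb6: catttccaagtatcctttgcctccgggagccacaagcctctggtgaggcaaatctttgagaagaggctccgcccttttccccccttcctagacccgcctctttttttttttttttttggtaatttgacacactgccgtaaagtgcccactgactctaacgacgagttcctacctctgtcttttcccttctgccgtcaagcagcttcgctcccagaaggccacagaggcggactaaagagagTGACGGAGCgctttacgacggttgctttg
Psmb8: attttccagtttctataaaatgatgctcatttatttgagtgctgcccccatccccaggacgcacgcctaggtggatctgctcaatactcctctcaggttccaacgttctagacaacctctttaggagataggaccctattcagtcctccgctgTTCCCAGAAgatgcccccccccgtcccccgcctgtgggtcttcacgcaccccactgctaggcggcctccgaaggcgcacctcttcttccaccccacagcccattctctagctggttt
Psme1: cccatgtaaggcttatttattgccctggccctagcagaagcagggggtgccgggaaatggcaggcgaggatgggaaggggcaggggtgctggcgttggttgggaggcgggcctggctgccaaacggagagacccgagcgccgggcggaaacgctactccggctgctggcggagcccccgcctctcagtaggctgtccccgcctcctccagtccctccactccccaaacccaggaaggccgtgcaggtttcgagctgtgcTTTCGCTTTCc
In Psmb5 the capitals are TGACGTCGC, with the first base 47 bases before the start, and in Psmb6 TGACGGAGC, 9 bases before it. Both match the antioxidant response element core TGACNNNGC, the kind of site that NFE2L1 and NFE2L2 bind. In Psmb8 the capitals match the gamma-activated site TTCNNNGAA. The opening bases of no GENCODE M21 transcript of Psmb8 were found in its window, whereas each of the other 3 windows held those of its gene, so the start used for Psmb8 rests on RefSeq alone. In Psme1 the capitals match the core of the interferon-stimulated response element (GAAA, any 2 bases, GAAA) on the opposite strand.

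The motifs were searched on both strands of full 300-base windows. RefSeq windows matched 41 of the 49 members, with 44 windows. TGACNNNGC was in 6 of them (13.6%; Psmb5, Psmb6, Psmc6, Psmd9, Psmd12 and Psme4) and in 12.4% of all 32841 windows. The interferon-stimulated element core was in 5 (11.4%; Psmb3, Psmd4, Psmd9, Psme1 and Psmg4) against 3.44% of all, and TTCNNNGAA in 3 (6.82%; Psmb8, Psmd2 and Psmg1) against 8.30%. The full cAMP response element TGACGTCA was in none of the 44 and in 1.79% of all windows, and the CCAAT box CCAAT was in 14 (31.8%) against 37.4%. The antioxidant core shares its first letters, TGAC, with the cAMP element, but the same bases cannot match both motifs in full. A match describes letters in the window and is no evidence of binding.

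The ATPases form the ring of the regulatory particle that unfolds substrates. All 6 had positive log2 fold changes (median 0.29), and 3 were higher at an unadjusted p under 0.05. Psmc6 had 91.3, 104, 86.5 and 96.0 CPM in vehicle and 163, 120.1, 171, 94.1 and 117 CPM in formoterol livers, where M49 was inside the vehicle range (log2 fold change 0.49, SE 0.18, edgeR adjusted p = 0.227). Psmc3 had 74.4, 97.6, 94.3 and 111 CPM against 139, 116, 124, 119.9 and 97.1, with M50 inside the vehicle range. Psmc5 had 59.5, 86.6, 79.2 and 93.9 CPM against 117, 107, 101.2, 84.2 and 97.1, with M49 inside it. These 2 genes had the same log2 fold change of 0.34, and the other ATPases ran from 0.08 (Psmc4) to 0.25 (Psmc1). Psmc3 overlaps Slc39a13 on the other strand, which had 5.19 CPM on average against 108 for Psmc3.

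The non-ATPase genes encode the scaffold, the ubiquitin receptors and the deubiquitinase of the regulatory particle, and Psmd5, Psmd9 and Psmd10 encode chaperones that help to assemble its base. Their median log2 fold change was 0.03, with 8 positive and 6 negative, and none was higher while 3 were lower at an unadjusted p under 0.05. Psmd1 (chromosome 1, 85992109 to 86066873), the larger scaffold of the base, had 99.4, 80.3, 115 and 73.5 CPM in vehicle and 79.7, 64.9, 66.8, 70.5 and 71.0 CPM in formoterol libraries. M46 alone lay inside the vehicle range and the other 4 below it (log2 fold change −0.38, SE 0.15, edgeR adjusted p = 0.267). Psmd11, a lid subunit, had 50.2, 34.8, 49.6 and 43.5 CPM in vehicle and between 35.7 and 36.9 CPM in all 5 formoterol libraries, which were inside the vehicle range close to M58 (log2 fold change −0.30, SE 0.14).

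Psmd13 (chromosome 7, 140461881 to 140478556), another lid subunit, had 23.1, 14.1, 23.0 and 15.8 CPM in vehicle and 12.1, 14.96, 15.7, 14.8 and 6.77 CPM in formoterol livers. Its high values were M56 and M59, and M58 and M60 lay among or next to the formoterol values (log2 fold change −0.56, SE 0.24, edgeR adjusted p = 0.295). Psmd13 overlaps Sirt3 on the other strand over 342 bp, and Sirt3 had 35.4 CPM on average. Psmd13 also overlaps the processed pseudogene Gm15542 on the same strand over 1194 bp (5.62 CPM against 15.6 for Psmd13). The value of Psmd13 is therefore uncertain. The largest positive values were those of the ubiquitin receptor Psmd4 (0.28, SE 0.16) and of Psmd6 (0.26, SE 0.15). Psmd2, Psmd7, Psmd12 and the deubiquitinase Psmd14 lay between 0.01 and 0.07. Psmd9 overlaps Hpd over 10921 bp on the other strand, and Hpd had 1210 CPM on average against 14.7 for Psmd9, so the value of Psmd9 (0.08, SE 0.18) cannot be told from reads of Hpd.

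Assembly chaperones pair up to build the alpha ring. Psmg4, the shortest of them (555 bp), was the lowest in CPM but not per kb. It had 2.27, 3.21, 4.00 and 4.12 CPM in vehicle and 9.85, 5.03, 6.81, 4.44 and 5.00 CPM in formoterol livers. The groups did not overlap, although M49 exceeded the highest vehicle library by little (log2 fold change 0.86, SE 0.29, edgeR adjusted p = 0.216). Psmg1 had 12.1, 17.1, 15.6 and 14.8 CPM against 21.0, 18.8, 14.98, 18.8 and 15.9. Psmg3 had 5.07, 8.89, 6.59 and 6.02 CPM against 8.87, 7.51, 9.40, 8.87 and 6.77. Both overlapped between the groups, with log2 fold changes of 0.27 (SE 0.16) and 0.32 (SE 0.21), and Psmg2 had −0.01 (SE 0.20).

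In all, 4 members (Psma4, Psmb6, Psme1 and Psmg4) had every formoterol library above every vehicle library, where 2.45% of all genes tested did. None had every formoterol library below, where 2.38% of all genes did. The core and the regulatory particle were set side by side within libraries, a comparison chosen after the values were seen and given without a test. Summed over the Psma and Psmb genes without the immunoproteasome, the level was 891.6, 1096, 1108 and 1210 CPM in vehicle libraries M56, M58, M59 and M60 and 1889, 1373, 1675, 1162 and 1166 CPM in formoterol libraries M46 to M50. M49 and M50 lay below M60. Summed over the Psmc and Psmd genes it was 1026 to 1185 CPM in vehicle and 1059 to 1438 CPM in formoterol livers. The ratio of these sums was 0.869, 1.01, 0.975 and 1.02 in vehicle and 1.31, 1.13, 1.26, 1.06 and 1.10 in formoterol libraries, so that the groups did not overlap. The mean of log2 values, in which each gene weighs the same, gave core minus regulatory differences of −0.31 to 0.05 in vehicle and −0.13 to 0.31 in formoterol libraries, which overlapped.

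**Figure D4:**
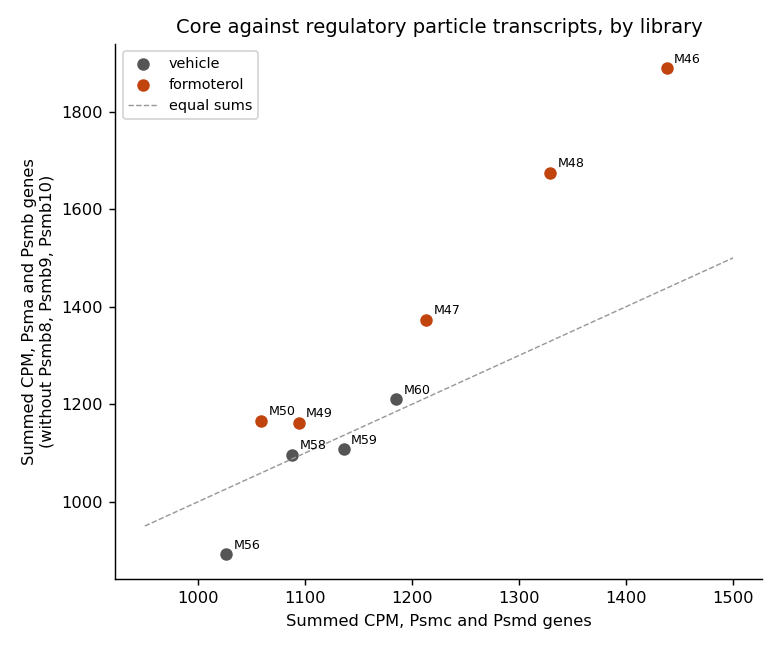
Summed level of core genes (vertical axis, CPM) against summed level of Psmc and Psmd genes (horizontal axis, CPM) in each library, with a dashed line where the sums are equal. Axes do not start at 0. All 5 formoterol libraries lie above the line by ratios of 1.06 to 1.31, and the vehicle libraries lie at ratios of 0.869 to 1.02.

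Many of the core genes moved together from library to library within the groups as well as between them. After removal of group means, the median Pearson correlation over the 105 pairs of constitutive core genes was 0.78 across 9 libraries. Single pairs ran from −0.53 to 0.98. The median was 0.77 over the 15 pairs of ATPases and 0.43 over the 91 pairs of non-ATPase genes. Over pairs of a core with a regulatory gene it was 0.61, and of an immunoproteasome with a core gene 0.69. Over all pairs of genes tested it was close to 0 (−8e-04). These points share libraries, depth and tissue composition and are given as a description. M46 was the highest library for 30 of the 48 members (62.5%) and for 18.3% of all genes tested, and M56 was the lowest for 23 (47.9%) and for 13.7% of all genes.

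Per kb of the length given in the deposited table, constitutive subunits that occur in equal numbers in the core differed in level. In vehicle livers Psmb5 had 97.3 ± 26.7 CPM per kb (SD, n = 4), Psma4 60.4 ± 1.65, Psmb6 59.3 ± 12.4 and Psma6 55.0 ± 12.2, and the last 3 did not differ beyond their spread. At the lower end, apart from Psma8 (0.486), Psmb7 had 15.2 ± 1.09 and Psma3 11.9 ± 1.87 CPM per kb. How the table defines a gene's length is not given in the sources used here, and lengths that merge transcripts lower these values. In the regulatory particle the highest levels were those of Psmc5 (57.3 ± 10.6) and Psmd4 (42.6 ± 7.41), and the chaperones Psmd9 (1.96 ± 0.38) and Psmd5 (1.65 ± 0.39) were the lowest. Psmd9 overlaps Hpd, and Psmd5 overlaps Cutal on the other strand over 573 bp (23.3 CPM on average against 11.5 for Psmd5), so both levels are uncertain.

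Gene length moved with the fold changes. Across the 11743 protein-coding genes tested, log2 fold change and length had a Spearman correlation of −0.245, and across the 48 members it was −0.412, where genes are not independent replicates. The median length was 1951 bp for the beta ring, 3217 bp for the non-ATPase genes and 4229 bp for all genes tested. With the length trend of each library removed before the edgeR fit, 13 members were higher and 1 was lower at an unadjusted p under 0.05, against 9.06% and 5.11% of all genes. The lower member was Psmd13, whose value is uncertain because of its overlaps. Psmd1 and Psmd11 had log2 fold changes of −0.27 and −0.21 in that fit (edgeR unadjusted p = 0.105 and 0.151). The median log2 fold change was then 0.40 for the beta ring, 0.60 for the immunoproteasome, 0.23 for the ATPases, 0.02 for the non-ATPase genes and 0.24 for the activators. Psmb6 kept 0.55 of its 0.66 and Psmb5 0.40 of its 0.66.

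**Figure D5:**
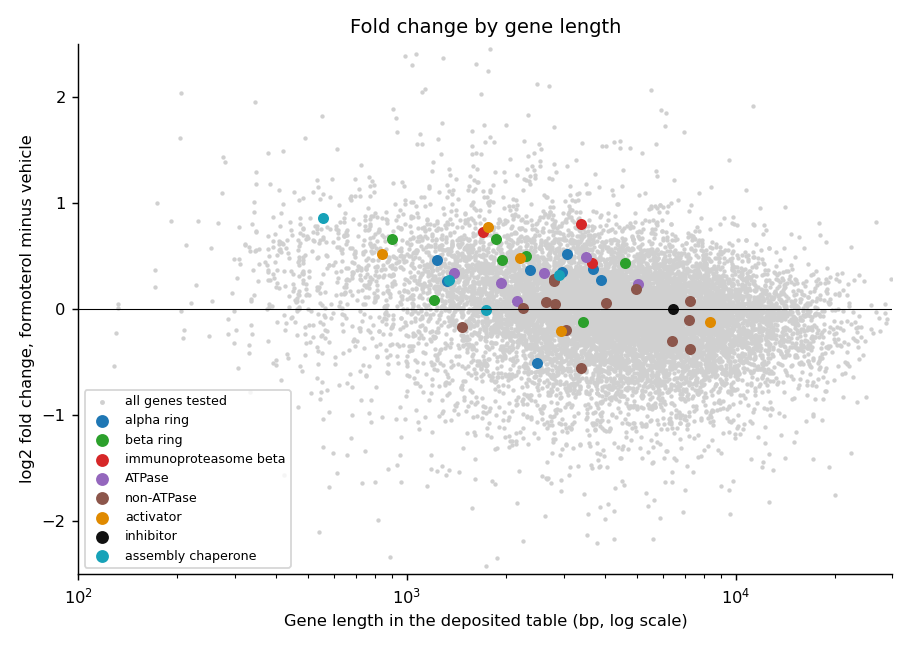
Log2 fold change (vertical axis, formoterol minus vehicle) against gene length (horizontal axis, bp, log scale) for all genes tested in grey and for the members in the colours of their roles; 53 genes lie outside the limits drawn. The long members Psmd1 (7265 bp) and Psme4 (8382 bp) lie below 0, and the short member Psmb5 (899 bp) lies at 0.66. Other members depart from this order, such as the long Psmf1 (6441 bp) at 0.00 and the short Psmd10 (1469 bp) at −0.17.

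Markers of other cell types moved with library too. Of 18 hepatocyte genes tested 9 were higher and none was lower at an unadjusted p under 0.05, and their sum was highest in M48 (166500 CPM) and M46 (158900 CPM). Of 10 endothelial markers all had negative log2 fold changes and 1 was lower, with summed levels of 131 to 162 CPM in vehicle and 47.2 (M46) to 154 (M49) in formoterol livers. The lower gene, Wnt2, was near the filter limit (means of 1.05 CPM in vehicle and 0.22 in formoterol livers). Wnt2 passed the filter through its vehicle libraries, so its call is no support for a difference. Stellate cell and fibroblast markers summed to 403 to 573 CPM in vehicle and 133.5 (M46) to 584 (M49) in formoterol livers, with 11 of 12 log2 fold changes negative (median −0.28) and none higher or lower in the edgeR test. With limma-voom quality weights 3 of them were lower after adjustment. Monocyte and macrophage markers summed to 133 to 284 CPM against 87.1 to 320, with 9 of 10 log2 fold changes negative (median −0.58) and 3 lower. M46, the library with the highest proteasome values, thus had the lowest sums of these 3 lists, and their part in the result was not tested. T and NK cell markers summed to 2.06 to 3.21 CPM in vehicle and 2.77 to 3.65 CPM in formoterol livers over 10 genes. Of these only Cd4 passed the filter on low counts, largely through formoterol libraries (means of 0.47 CPM in vehicle and 1.35 in formoterol livers). Its log2 fold change was 1.53 (SE 0.73, edgeR unadjusted p = 0.0521), a direction that passing the filter in this way favours. The part of such cells in the result was not tested. Kupffer cell, B and plasma cell and cholangiocyte markers had none higher or lower among the 9, 7 and 6 genes tested.

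Genes around the proteasome showed no common direction. Among the antigen presentation genes that use immunoproteasome peptides, 3 of 12 were higher and none was lower at an unadjusted p under 0.05, with Tap2, a subunit of the peptide transporter, at 18.9 ± 3.84 CPM in formoterol and 12.9 ± 1.75 in vehicle livers, and the chaperone Calr at 1122 ± 194 against 832 ± 24.5. Of 20 interferon response genes 1 was higher (Iigp1) and 3 were lower, among them Rsad2 (log2 fold change −0.79, SE 0.34), and the median was 0.02.

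Assembly and docking factors named outside the Psm series had 0 of 11 genes higher or lower, with a median of 0.16. With the length trend removed, 3 of the 11 were higher and 0 lower, against 9.06% and 5.11% of all genes, and the median was 0.09. Pomp, which matures the core, had 102.5 ± 18.9 CPM in formoterol and 80.0 ± 16.4 in vehicle livers (log2 fold change 0.36, SE 0.18, unadjusted p = 0.0627), and Sem1, a small lid subunit, had 0.34 (SE 0.19). Among 7 genes of transcriptional control 1 was lower (Foxo3, log2 fold change −0.54, SE 0.21) and none was higher. Nfe2l1 itself had 68.7 ± 14.8 CPM against 83.6 ± 9.59 (log2 fold change −0.28, SE 0.17, unadjusted p = 0.111), and Nfe2l2, which encodes NRF2, had −0.44 (SE 0.22). NFE2L1 is controlled largely as a protein, which these counts do not measure.

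Of 4 genes that encode ubiquitin, Rps27a, a fusion of ubiquitin with a ribosomal protein, was higher (52.7 ± 21.99 CPM against 21.4 ± 6.03, unadjusted p = 0.00287, edgeR adjusted p = 0.173). Ubiquitin activation and shuttling genes had 0 of 11 higher or lower, with a median of −0.13. Faf1 and Ufd1, partners of the unfoldase p97, had the smallest p of that list with log2 fold changes of 0.31 (SE 0.18) and 0.21 (SE 0.13).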

How the data were processed

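Poly(A) RNA of 9 livers was analysed. What the authors deposited are unnormalized gene counts. HISAT2 2.0.5, the build mm39 and DESeq2 are named in the submitters' processing notes. Which program counted the reads, and whether it used strand, is not given in the sources used here. Columns carry a group suffix and no replicate number, and the suffix HF was read as formoterol and HD as vehicle, which match the group sizes of 5 and 4. All directions rest on that reading. The labels do not say that each library is a separate mouse beyond the design's counts of mice; otherwise p-values measure technical spread.

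Members and gene lists were chosen with earlier results of these data known. Genes were kept by filterByExpr (minimum count 10, minimum total 15, about 0.6 CPM in 4 libraries) and tested with edgeR 4.0.16 in R 4.3.3 (TMM factors, robust quasi-likelihood test, Benjamini-Hochberg adjustment, threshold 0.05). CPM values use TMM factors. Libraries of a group differed far beyond sampling noise (chi-square per degree of freedom 24.3 to 222). DESeq2 1.42.0, limma-voom (limma 3.58.1), other scalings, no filter, removal of a length trend (lowess, span 0.3) and leaving out each library were alternatives. Values of every library are given for the 3 members with the smallest p in each role with more than 3 tested, for whole smaller roles, for the 3 lowest fold changes, and for the catalytic subunits, their inducible counterparts and Psme1 and Psme2. Outside the members, up to 2 genes per list, Nfe2l1 and Pomp are named. The edgeR test was checked on simulated counts for this comparison over 13042 genes, with 147 calls of which 15 were false, a share above the threshold of 0.05. Recovery was 47% at a 2-fold change and 85% at a 4-fold change. Genes were simulated independently of each other and without a length trend, so the check does not cover variation that genes share across libraries.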

Additional observations from a re-analysis of the deposited data

Results flagged for a closer look

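In 3 cases a single library stood apart from the rest of its group, with a gap to its nearest neighbour that took up more of the group's range than Dixon's 95% critical value allows. Chance gives about 1 in 20 groups, and 54 groups were examined. Psmd11 in formoterol library M49 had 36.9 CPM and its nearest neighbour 36.01, within a group whose values all lay within about 1 CPM. Psme1 in vehicle library M56 had 73.3 CPM, below the other vehicle libraries at 91.3 and above. The Psmb9 to Psmb6 ratio in formoterol library M46 was 0.0576, below the next value of 0.0714. The causes were not tested.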

How the results depend on the processing

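The count of all genes past an adjusted p of 0.05 was 0 in the edgeR fit, 263 without the filter on low counts, 306 by DESeq2, 1374 by limma-voom with sample quality weights, and 0 to 702 with 1 library left out in turn (702 without M49, 4 without M60). Without the filter Psmb5, Psmb6, Psmb8 and Psmb10 passed as higher (edgeR adjusted p = 0.0134 to 0.0407). In that run 191 of 24041 genes tested passed as higher and 72 as lower. Without M49, Psmb6, Psmb8 and Psmc6 passed as higher, where 442 of 12736 genes tested passed as higher and 260 as lower. Scaling by library totals lowered the median of all genes from −0.01 to −0.16; the count of higher members was then 6 (3.58% of all genes higher, 9.91% lower) and the members' median 0.11. The count of higher members was 9 to 20 with 1 library left out, and the members' median 0.17 to 0.32. The count of lower members was 1 with the length trend removed and 0 to 3 with 1 library left out. The fold change of Psmf1 was −0.04 with upper-quartile factors, −0.14 with library totals, 0.00 without the filter, −0.02 by limma-voom, −0.19 with quality weights and −0.08 to 0.06 with 1 library left out; that of Psmb7 was −0.23 to 0.00. The log2 difference of the Psmb8 to Psmb5 ratio was −0.01 to 0.19 with 1 library left out. The Psmb10 to Psmb7 difference kept its sign (0.68 to 1.04), as did the Psmb9 to Psmb6 difference (−0.28 to −0.14), and none passed after adjustment. The causes of these differences were not tested, apart from the fewer or more genes and samples that the settings imply. Genes at a few CPM, such as Psma8 and Psmg4, are limited by depth. No paired analysis was possible because the table's columns carry none of the labels' replicate numbers. Those numbers count samples within each group, and the labels state no pairing of mice, so the numbers alone would not define pairs.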
